A study of Mus musculus with 8 samples.

Results

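Clusterin, the product of Clu, was examined in the ventral prostate of mice that express human SKP2. Clu is 1 of the 36333 genes listed and was chosen by its TPM and its rank in each mouse of both genotypes. These values are therefore given as a description with no test. RNA was sequenced from the ventral lobes of 4 hSKP2-KI and 4 WT males, all 12 months old, with 1 library per mouse. The hSKP2-KI males carry a human SKP2 coding sequence, joined through a self-cleaving peptide, in the first exon of the endogenous probasin gene Pbsn. They were bred from heterozygous females and WT males of the FVB/N strain. The founder line used for sequencing is not named in the sources used here. The probasin promoter is active in prostate epithelium and depends on androgen, so the transgene follows these cells. Whole lobes were homogenized, and the RNA holds epithelium, stroma and leukocytes together. The levels are TPM (transcript abundance), a measure per unit of transcript length whose total is fixed at 1000000 in each mouse.

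Clusterin is a secreted glycoprotein, also called apolipoprotein J, that is cut into a pair of disulfide-linked chains on its way out of the cell. Outside the cell it holds unfolded proteins in solution, binds lipid and stops assembly of the complement membrane attack complex. It is known in the rat ventral prostate as a message that rises when androgen is withdrawn and the gland regresses. Retained inside the cell, it has been described to bind BAX and to influence cell death.

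Mouse Clu (Entrez 12759) lies on the plus strand at chr14:65968483-65981548 of GRCm38, a span of 13066 bases. It is a protein-coding gene, and 0 other RefSeq genes overlap it. GENCODE lists 9 transcripts of Clu, of which 6 are protein coding, and 9 exons in the principal transcript. The table gives 1 value per gene, so these transcripts were not separated.

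Clu was among the most abundant transcripts of the WT lobe and stood far lower in hSKP2-KI mice. In WT replicates 1 to 4 its TPM was 2386, 3031, 2738 and 1332. In hSKP2-KI replicates 1 to 4 it was 504, 425, 386 and 769. The genotypes did not overlap, although the lowest WT mouse stood only 1.73 times above the highest hSKP2-KI mouse. The mean was 2372 ± 742 TPM (SD, n = 4) in WT and 521 ± 172 TPM (SD, n = 4) in hSKP2-KI prostates, a 4.55-fold ratio of means. On the log2(TPM + 1) scale the difference of hSKP2-KI minus WT was -2.17. The coefficient of variation was 31.3% in WT and 33.1% in hSKP2-KI mice.

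**Figure D1:**
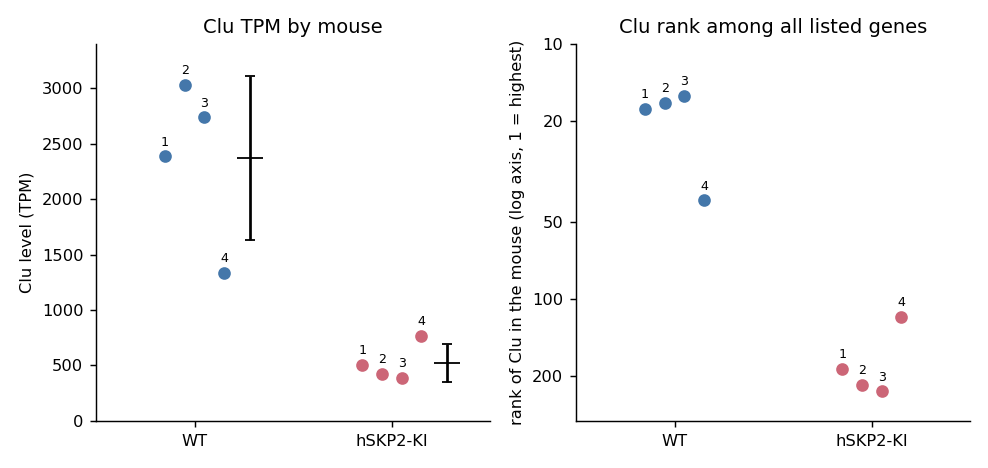
Left, Clu level in TPM for each mouse, with numbers giving the replicate and bars the mean ± SD of 4 mice. Right, the rank of Clu among the 36333 listed genes on a log axis with rank 1 at the top: WT mice lie at 16 to 41 and hSKP2-KI mice at 117 to 230.

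The rank of Clu among all listed genes showed the same separation and does not depend on how the TPM were scaled between mice. It ranked 18, 17, 16 and 41 in WT replicates 1 to 4, and 187, 217, 230 and 117 in hSKP2-KI replicates 1 to 4. The transcript made up 0.133% to 0.303% of all TPM in WT mice and 0.0386% to 0.0769% in hSKP2-KI mice. WT replicate 4 and hSKP2-KI replicate 4 were the mice nearest to each other. Without WT replicate 4 the log2 difference was -2.43, and without hSKP2-KI replicate 4 it was -2.38.

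Few abundant genes were lowered as far. Of the 19 tested genes with a WT mean at least that of Clu, only Gm42035 and Pbsn had a larger difference, of -10.70 and -5.66 on the log2 scale. Pbsn received the knock-in, and its TPM fell from 5984 ± 2447 to 115 ± 39.6 (SD, n = 4 each). Skp2, whose value may include reads of the human insert, rose from 1.75 ± 0.528 to 48.1 ± 10.1 TPM (SD, n = 4 each). By loss of TPM Clu was the 7th gene, with 1851 TPM lost, and the next, the histone gene Hist2h2aa1, lost 536 TPM. Hist2h2aa1 has near-identical copies among which reads may be split.

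In the order of log2 difference over the 13080 genes tested, Clu held position 11 from the bottom. Just below it, with larger falls, were Defb28 (-2.22), Wfdc3 (-2.33) and Adh6a (-2.38), a beta-defensin, a protease-inhibitor-like secreted protein and an alcohol dehydrogenase. Just above it were the ectopeptidase Mme (-2.08), the secreted protein Fam132a (-2.06) and the growth factor Egf (-1.98). Wfdc3 overlapped between genotypes and had an adjusted p of 0.0809, against 0.00670 without WT replicate 2, where it stood at 2.73 TPM. The order was taken with 1 added to TPM, which holds down the falls of low genes. Defb28 was such a gene, with a mean of 4.61 TPM in WT and 0.145 TPM in hSKP2-KI mice.

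TPM has a fixed total, and the main secretory transcripts of the lobe took less of it in hSKP2-KI mice, which leaves more for other genes. Most genes read slightly higher, and how much of this comes from the fixed total was not tested. The median log2 difference of the genes tested was 0.23. Relative to that median Clu lay at -2.41, and after median-ratio scaling, which sets the median to -0.01, its difference was -2.44. Because of the fixed total, the calls of each list of genes are given in TPM as deposited and after median-ratio scaling. With limma across all genes at an adjusted p under 0.05, 32.7% of genes tested had a higher level with hSKP2-KI and 1.23% a lower one, or 6.91% and 4.25% after median-ratio scaling. In TPM as deposited, all hSKP2-KI mice lay above all WT mice for 34% of genes tested and below for 1.03%.

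Ratios taken within a mouse avoid the scaling. Krt8 and Krt18, the keratins of luminal epithelium, stood at 448 ± 13.7 and 565 ± 38.8 TPM in WT and at 500 ± 42.2 and 643 ± 20.9 TPM in hSKP2-KI prostates (SD, n = 4 each), with adjusted p-values of 0.129 and 0.0729 in limma. Other luminal markers differed in direction. Cdh1 had a log2 difference of 0.33 (adjusted p = 0.0238), Hoxb13 one of -0.13 (adjusted p = 0.265) and Foxa1 one of -0.06 (adjusted p = 0.599). After median-ratio scaling Foxa1 was at -0.33 (adjusted p = 0.0342). Clu was 2.86 to 6.98 times Krt8 in WT mice and 0.789 to 1.68 times Krt8 in hSKP2-KI mice. Against Krt18 the ratio was 2.27 to 5.40 in WT and 0.628 to 1.20 in hSKP2-KI mice. Against Epcam, the epithelial adhesion molecule, it was 3.62 to 10.6 and 1.07 to 2.18. Epcam itself had a log2 difference of 0.37 (adjusted p = 0.0381), which widens this ratio. That call was lost without any of 7 of the 8 mice. After median-ratio scaling Epcam was at 0.10 (adjusted p = 0.638). None of these 3 ratios overlapped between genotypes, but all 3 share the Clu value of each mouse, which did not overlap either. In bulk lobes, fewer Clu-expressing cells and less Clu RNA per cell cannot be told apart.

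**Figure D2:**
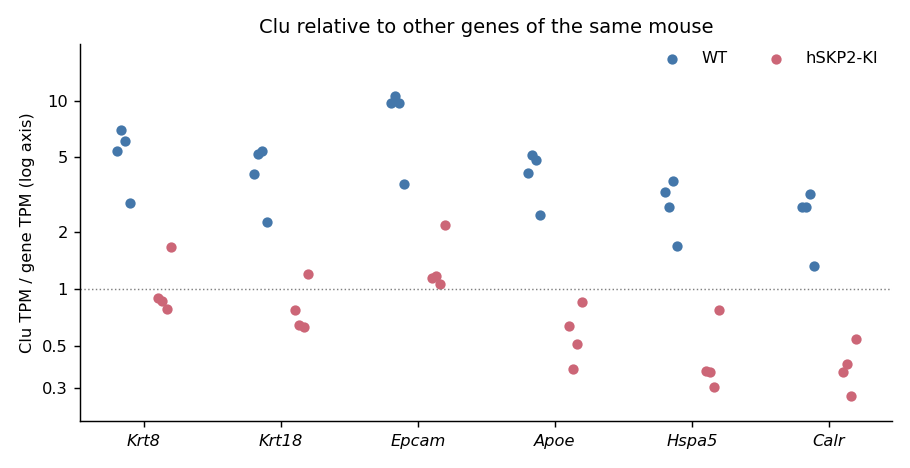
Ratio of Clu TPM to the TPM of 6 other genes in the same mouse, on a log axis, with 1 point per mouse and a dotted line at equal levels. For Apoe, Hspa5 and Calr all 4 WT mice lie above the line and all 4 hSKP2-KI mice below it.

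Clu stood above Apoe, Hspa5 and Calr in WT mice and below them in hSKP2-KI mice. Per transcript length it was 2.47 to 5.16 times Apoe in WT mice and 0.376 to 0.859 times Apoe in hSKP2-KI mice. Against Hspa5, the main chaperone of the endoplasmic reticulum, the ratio was 1.69 to 3.76 in WT and 0.301 to 0.773 in hSKP2-KI mice. Against Calr, calreticulin, it was 1.33 to 3.21 and 0.270 to 0.543. For these 3 genes Clu was the higher of each pair in all 4 WT mice and the lower in all 4 hSKP2-KI mice. Against P4hb, a disulfide isomerase, the ratio was 1.90, 2.05, 2.07 and 0.955 in WT replicates 1 to 4 and 0.266 to 0.568 in hSKP2-KI mice, so in WT replicate 4 Clu was below P4hb.

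The genes around clusterin were read from 10 lists of 111 genes, covering its relatives, receptors, targets, regulators, partners, processing and settings in which it is known to rise. Of these, 93 passed the filter on low values. In TPM as deposited 55 of the 93 (59.1%) were higher with hSKP2-KI and 2 (2.15%) lower, against 32.7% and 1.23% of all genes tested. After median-ratio scaling 12 (12.9%) were higher and 4 (4.30%) lower, against 6.91% and 4.25%. No tested gene of these lists fell as far as Clu, the lowest being Azgp1 at -0.93. Clu was chosen from these values and held position 11 of 13080, so few genes of any list could fall as far.

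**Figure D3:**
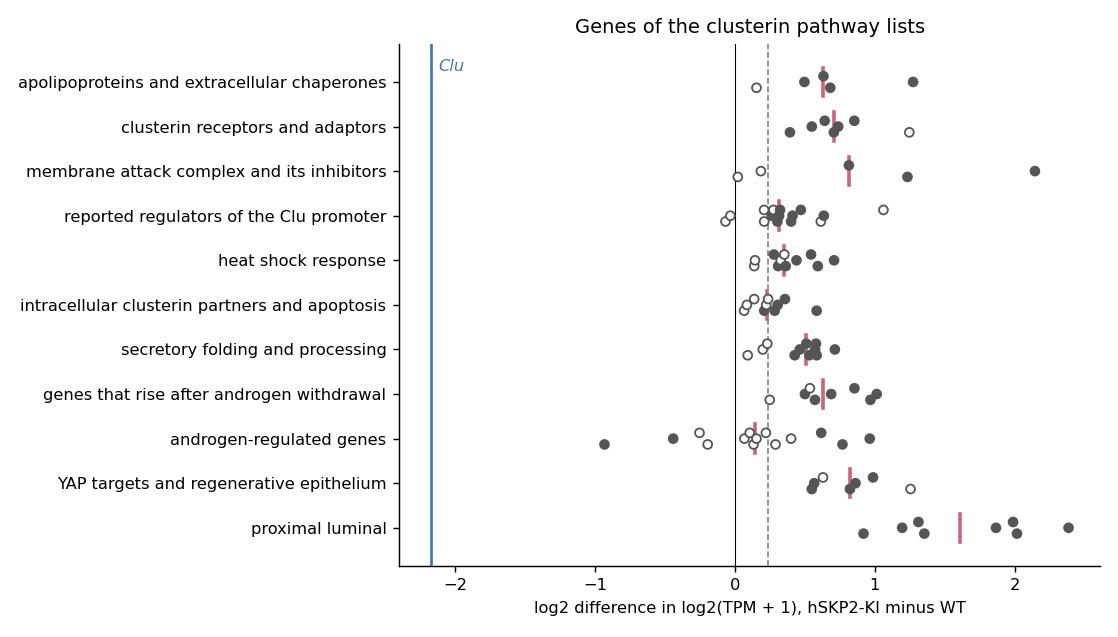
Difference in log2(TPM + 1), hSKP2-KI minus WT, for each tested gene of the 10 lists and of the proximal luminal markers, filled where the adjusted p was under 0.05. Red bars are list medians, the dashed line is the median of all genes tested (0.23) and the blue line is Clu (-2.17), which lies below every listed gene.

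Most tested relatives of clusterin that are also secreted and bind lipid were higher in hSKP2-KI mice. Of 11 apolipoprotein and extracellular chaperone genes 5 were tested, with a median log2 difference of 0.63 against 0.23 for all genes. Among the 5, 4 were higher and 0 lower, against 32.7% and 1.23% of all genes. Apoe, which carries lipid between cells, rose from 567 ± 21.2 to 891 ± 172 TPM (SD, n = 4 each; log2 difference 0.63, SE 0.12, adjusted p = 0.00449). Apoc1, a small exchangeable apolipoprotein, rose from 32.3 ± 12.3 to 76.0 ± 9.59 TPM (log2 difference 1.27, adjusted p = 0.00306). Pltp, a phospholipid transfer protein, rose from 58.2 ± 7.05 to 96.6 ± 30.3 TPM (adjusted p = 0.0167). Apod, another lipid carrier, had an adjusted p of 0.0399 that rose above 0.05 when any of 5 of the 8 mice was left out. After median-ratio scaling only Apoc1 was called, with a log2 difference of 1.01 (adjusted p = 0.0214), and Apoe had 0.36 (adjusted p = 0.0956).

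Receptors that take up clusterin and their adaptors gave 6 higher and 0 lower of 7 tested, against 32.7% and 1.23% of all genes. Their median log2 difference was 0.71. Lrp1, a large endocytic receptor, was at 46.3 ± 11.8 against 27.9 ± 6.53 TPM (SD, n = 4 each; adjusted p = 0.0230), a call lost without hSKP2-KI replicate 2 or WT replicate 1. Lrpap1, the chaperone of this receptor family, rose by 0.39 on the log2 scale (adjusted p = 0.00824). The adaptors Dab2 and Dab1 rose by 0.85 and 0.74 (adjusted p = 0.00986 and 0.0117). Scarf1, a scavenger receptor, rose from 1.03 ± 0.331 to 2.15 ± 0.346 TPM (adjusted p = 0.0114). Trem2, a myeloid receptor, reached 40.9 TPM in hSKP2-KI replicate 2 against 4.66 to 10.0 in the other hSKP2-KI mice and 2.36 to 4.76 in WT mice (adjusted p = 0.0811, or 0.0493 without hSKP2-KI replicate 4). After median-ratio scaling Dab2 and Scarf1 kept their calls. Lrp2, Lrp8 and Plxna4 did not pass the filter.

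Of the complement genes that clusterin acts on, most components of the membrane attack complex were too low to be tested. Of 11 genes 5 were tested, 3 were higher and 0 lower (all genes, 32.7% and 1.23%), with a median log2 difference of 0.81. Cd59a and Cd55, membrane-bound inhibitors of complement, rose. CD59 blocks the last step of the membrane attack complex, and Cd59a stood at 96.6, 94.0, 109 and 139 TPM in hSKP2-KI replicates 1 to 4 and at 34.2, 25.0, 41.8 and 8.57 TPM in WT replicates 1 to 4. The genotypes did not overlap, and hSKP2-KI mice lay wholly above WT mice for 34% of genes tested. The log2 difference of Cd59a was 2.14 (SE 0.37, adjusted p = 0.00349), or 1.88 after median-ratio scaling (adjusted p = 0.0203). Reads may be shared with its paralog Cd59b, which had a mean of 0.502 TPM in hSKP2-KI and 0.269 TPM in WT mice. Cd55, which speeds decay of the enzymes that feed the complex, rose from 3.31 ± 0.952 to 6.44 ± 0.179 TPM (log2 difference 0.81, adjusted p = 0.00415), and by 0.60 after median-ratio scaling (adjusted p = 0.0253). C7, a soluble component, had a log2 difference of 1.23 (adjusted p = 0.0359), a call lost without any of 6 of the 8 mice.

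Transcription factors reported to act on the Clu promoter had a median close to that of all genes. Of 16 genes 15 were tested, 8 were higher and 0 lower (all genes, 32.7% and 1.23%), with a median log2 difference of 0.32. Ybx1, a cold-shock domain protein, rose from 164 ± 10.1 to 218 ± 7.92 TPM (SD, n = 4 each; adjusted p = 0.00318), and Twist1, a mesenchymal regulator, rose by 0.63 on the log2 scale (adjusted p = 0.0144). Nfkb1 had a difference of 0.26 (adjusted p = 0.0190), lost without hSKP2-KI replicate 4, and Junb one of 0.28 (adjusted p = 0.104). Trp53, which encodes p53, had an adjusted p of 0.0424 that rose above 0.05 without any of 7 of the 8 mice. After median-ratio scaling 0 genes of the list were higher and 1, Myc, was lower, by 0.33 (adjusted p = 0.0445), against -0.07 (adjusted p = 0.643) in TPM as deposited and 0.054 without WT replicate 2.

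Genes of the heat shock response, which share heat-shock factor control with Clu, gave 7 higher and 0 lower of 11 tested. For all genes the shares were 32.7% and 1.23%. The median log2 difference of the list was 0.35. Bag3, a co-chaperone, rose from 28.5 ± 2.89 to 43.4 ± 3.92 TPM (SD, n = 4 each; adjusted p = 0.00245). Cryab, a small heat shock protein, rose from 17.2 ± 2.72 to 28.5 ± 2.54 TPM (adjusted p = 0.00240), and Hsph1 rose by 0.54 on the log2 scale (adjusted p = 0.00939). The abundant members Hspa8, Hspb1 and Hsp90aa1 had log2 differences of 0.14, 0.33 and 0.14 (adjusted p = 0.278, 0.0703 and 0.137), and Hspb1 passed the threshold without hSKP2-KI replicate 4 (adjusted p = 0.0395). After median-ratio scaling Bag3 and Cryab remained called, by 0.33 and 0.45, and the differences of Hspa8 and Hsp90aa1 turned to -0.13 each.

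Intracellular partners of clusterin and genes of cell death gave 5 higher and 0 lower of 10 tested, against 32.7% and 1.23% of all genes. Their median was 0.23, the same as all genes. Bax, the pore-forming protein that clusterin binds, was at 42.4 ± 7.55 TPM in hSKP2-KI and 40.3 ± 9.25 TPM in WT prostates (SD, n = 4 each; adjusted p = 0.681), and its difference of 0.09 turned to -0.18 after median-ratio scaling, to -0.026 without hSKP2-KI replicate 2 and to -0.041 without WT replicate 3. Bcl2l1, which encodes the survival protein BCL-XL, rose by 0.58 (adjusted p = 0.00275). Nfkbia, Bak1 and Map1lc3b had differences of 0.36, 0.31 and 0.21 (adjusted p = 0.0233, 0.0306 and 0.0478), calls lost without any of 4, 5 and 7 of the 8 mice. After median-ratio scaling 0 of the 10 were called, and Map1lc3b turned to -0.06.

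Genes of the machinery that folds and cuts secreted proteins gave 8 higher and 0 lower of 11 tested, against 32.7% and 1.23% of all genes. Their median log2 difference was 0.51. Furin, a convertase of secreted proproteins, rose from 29.7 ± 3.16 to 42.6 ± 0.869 TPM (SD, n = 4 each; adjusted p = 0.00294). Pdia4, Hsp90b1 and Pdia3, which fold proteins in the endoplasmic reticulum, rose by 0.71, 0.58 and 0.58 (adjusted p = 0.00359, 0.00792 and 0.00380). Calr stood at 1326 ± 174 against 961 ± 122 TPM (adjusted p = 0.0169, lost without WT replicate 1). Hspa5 stood at 1202 ± 160 against 839 ± 183 TPM (adjusted p = 0.0203, lost without WT replicate 1 or 3). P4hb had a difference of 0.09 (adjusted p = 0.384) that turned to -0.18 after median-ratio scaling. Furin and Pdia4 kept their calls after that scaling.

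Genes that share with Clu a rise in the prostate after androgen withdrawal were mostly higher. Of 8 tested 6 were higher and 0 lower (all genes, 32.7% and 1.23%), with a median log2 difference of 0.63. Igfbp5, a binding protein of insulin-like growth factors, stood at 176, 356, 241 and 229 TPM in hSKP2-KI replicates 1 to 4 and at 87.7, 173, 118 and 114 TPM in WT replicates 1 to 4. The genotypes did not overlap, though only just (176 against 173 TPM). All hSKP2-KI mice lay above all WT mice for 34% of genes tested. The log2 difference of Igfbp5 was 1.01 (SE 0.22, adjusted p = 0.00832). Mgp, matrix Gla protein, rose by 0.97 and Ctsb, a lysosomal protease, by 0.85 (adjusted p = 0.00992 and 0.0111). Gstm1, a glutathione transferase, rose from 236 ± 21.8 to 354 ± 64.0 TPM (SD, n = 4 each; adjusted p = 0.00840). After median-ratio scaling only Igfbp5 was called, with a difference of 0.74 (adjusted p = 0.0435). Mgp and Ctsb were highest in hSKP2-KI replicate 2, at 542 and 232 TPM. That mouse also had the highest summed levels of macrophage, fibroblast, smooth muscle and basal epithelial markers, but not of endothelial or luminal markers.

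In TPM as deposited, androgen-regulated genes of the prostate had no common direction. Of 14 tested 3 were higher and 2 lower, against 32.7% and 1.23% of all genes. The median log2 difference was 0.14, below that of all genes. Msmb, an abundant secreted product of the gland, rose from 4867 ± 844 to 9664 ± 2791 TPM (SD, n = 4 each; log2 difference 0.96, adjusted p = 0.00599). Sord, sorbitol dehydrogenase, rose by 0.77 (adjusted p = 0.0111). Azgp1, a secreted glycoprotein, was lower, with 293 ± 35.6 against 569 ± 138 TPM (log2 difference -0.93, adjusted p = 0.00321), and the protease gene Tmprss2 was lower, with a difference of -0.44 (adjusted p = 0.0169). After median-ratio scaling 0 were higher and 3 lower, against 6.91% and 4.25% of all genes. The median was then -0.09, against -0.01 for all genes. The third lower gene was Rhou at -0.46 (adjusted p = 0.0143), against -0.19 (adjusted p = 0.112) in TPM as deposited.

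Clusterin also marks regenerating epithelium in other organs, where it accompanies targets of the YAP coactivator. In the lobes 5 of 7 tested genes of this list were higher and 0 lower, against 32.7% and 1.23% of all genes. The median log2 difference was 0.82. Anxa1, an annexin, rose from 143 ± 17.7 to 263 ± 52.5 TPM (SD, n = 4 each; adjusted p = 0.00293), and Axl, a receptor kinase, from 26.4 ± 3.70 to 47.7 ± 8.58 TPM (adjusted p = 0.00275). Both kept their calls after median-ratio scaling, by 0.59 and 0.56. Ankrd1 had a difference of 0.99 (adjusted p = 0.0285), lost without hSKP2-KI replicate 2 or WT replicate 1 or 4. Ctgf, a matricellular protein, ran from 8.26 to 72.2 TPM within WT mice (adjusted p = 0.0806), and its call was gained without WT replicate 2 (adjusted p = 0.0126).

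The lobes carried their defining transcripts, with Sbp, Sbpl, Spink1 and Pbsn at a summed 413388 to 462687 TPM in WT and 321289 to 343531 TPM in hSKP2-KI mice. Seminal vesicle markers summed to at most 0.656 TPM in any mouse, with 3 of 7 at 0 in all 8. Luminal epithelium markers summed to 2206 to 2429 TPM in WT and 2360 to 2689 TPM in hSKP2-KI mice. Of these 2 of 6 were higher and 0 lower, or 0 higher and 1 lower after median-ratio scaling. For all genes the shares were 32.7% and 1.23%, or 6.91% and 4.25% after that scaling. Proximal luminal markers were higher for 8 of 8, summed to 277 to 316 TPM in WT and 646 to 1127 TPM in hSKP2-KI mice, and kept 7 of 8 calls after median-ratio scaling. Among them Krt4 rose by 2.38, Wfdc2 by 2.01, Ly6d by 1.99, Ppp1r1b by 1.31 and Ly6a by 1.19 on the log2 scale. None overlapped between genotypes, where 34% of genes tested had all hSKP2-KI mice above all WT mice. WT replicate 4, lowest of its group for Clu, had the highest proximal luminal sum of the WT mice, 316 TPM, while the other WT mice lay at 277 to 293 TPM. Among hSKP2-KI mice the order was the other way, since replicate 4, highest for Clu, also had the highest sum, 1127 TPM, and replicate 3, lowest for Clu, the lowest, 646 TPM.

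Markers of other cell types were mostly higher in TPM as deposited, and most of these calls were lost after median-ratio scaling. Of all genes tested 32.7% were higher as deposited and 6.91% after that scaling. Fibroblast markers were higher for 5 of 5, at 369 to 535 TPM summed in WT and 675 to 1139 in hSKP2-KI mice. Smooth muscle markers were higher for 5 of 5, at 1884 to 2355 and 2747 to 4261 TPM. Endothelial markers were higher for 4 of 4, at 14.9 to 21.5 and 26.6 to 47.5 TPM. Macrophage markers were higher for 4 of 5, at 56.3 to 118 and 120 to 255 TPM, with 255 TPM in hSKP2-KI replicate 2. Basal epithelial markers, higher for 2 of 5, overlapped at 196 to 306 and 294 to 426 TPM summed. After median-ratio scaling the higher markers were 2 of 5 for fibroblasts, 2 of 5 for smooth muscle, 1 of 4 for endothelium, 0 of 5 for macrophages and 0 of 5 for basal cells, and 0 were lower. None of these markers was at 0 in all mice. The part of these cell types in the level of Clu, or in the rises of the listed genes, was not tested. Leaving out hSKP2-KI replicate 2 gave a log2 difference of -2.09 for Clu.

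Of the 5 protein-coding genes on each side of Clu on chromosome 14, 5 were tested. In TPM as deposited 3 were higher and 0 lower, against 32.7% and 1.23% of all genes. The other 5 stayed at or below 1.43 TPM in every mouse. Scara3, a scavenger receptor-like gene 14.5 kb upstream, rose from 7.81 ± 1.71 to 14.4 ± 1.37 TPM (SD, n = 4 each; log2 difference 0.82, adjusted p = 0.00384). Scara5, a ferritin receptor gene 204 kb upstream, rose by 0.95 (adjusted p = 0.00724), and Ptk2b, a kinase gene 172 kb downstream, by 0.51 (adjusted p = 0.00490). After median-ratio scaling Scara3 and Scara5 kept their calls, and Ptk2b had a difference of 0.26 (adjusted p = 0.0686). Ccdc25, 102 kb upstream, stood at 30.8 ± 2.03 and 32.4 ± 3.08 TPM (adjusted p = 0.553), with a difference of -0.33 after median-ratio scaling (adjusted p = 0.0477). Ephx2, the soluble epoxide hydrolase gene 103 kb downstream, had a difference of 0.29 (adjusted p = 0.448), or -0.0026 without WT replicate 3.

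**Figure D4:**
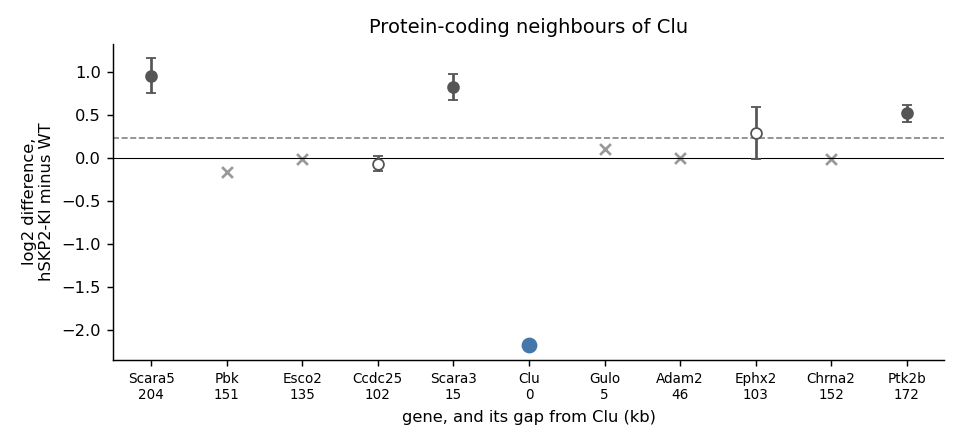
Difference in log2(TPM + 1), hSKP2-KI minus WT, for Clu (blue) and the 5 protein-coding genes on each side in chromosomal order, with the gap to Clu in kb under each name. Filled points had an adjusted p under 0.05, open points did not, bars are SE, crosses mark genes below the filter, and the dashed line is the median of all genes tested (0.23).

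The genes with the profile most like Clu were found by the root mean square difference, over the 8 mice, of log2(TPM + 1) after each gene's own WT mean was subtracted. The nearest was Adh6a, an alcohol dehydrogenase, at 0.299. It stood at 55.3, 107, 69.3 and 38.1 TPM in WT replicates 1 to 4 and at 8.31, 8.72, 11.4 and 19.5 TPM in hSKP2-KI replicates 1 to 4. Like Clu it was highest in WT replicate 2 and lowest in WT replicate 4 among WT mice, and highest in hSKP2-KI replicate 4 among hSKP2-KI mice. It was lowest in hSKP2-KI replicate 1, where Clu was lowest in replicate 3, and as the nearest gene by this measure it was chosen for its likeness. Next were Egf (0.482), Dlx5 (0.503), Mme (0.555) and Gm36673 (0.559), namely a growth factor, a homeobox gene, the ectopeptidase neprilysin and an uncharacterized transcript. Their log2 differences ran from -2.47 for Dlx5 to -1.82 for Gm36673, a size that the measure of likeness requires. Dlx5 and Gm36673 were low genes, with means of 8.33 and 3.02 TPM in WT and 0.653 and 0.124 TPM in hSKP2-KI mice. Their likeness to Clu in size therefore depends on the 1 added to TPM. With 0.1 added instead, both fell much further, while Clu stayed at -2.17. Among WT mice Mme and Egf had their lowest values in replicate 3, at 283 and 156 TPM, where Clu was at 2738 TPM.

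**Figure D5:**
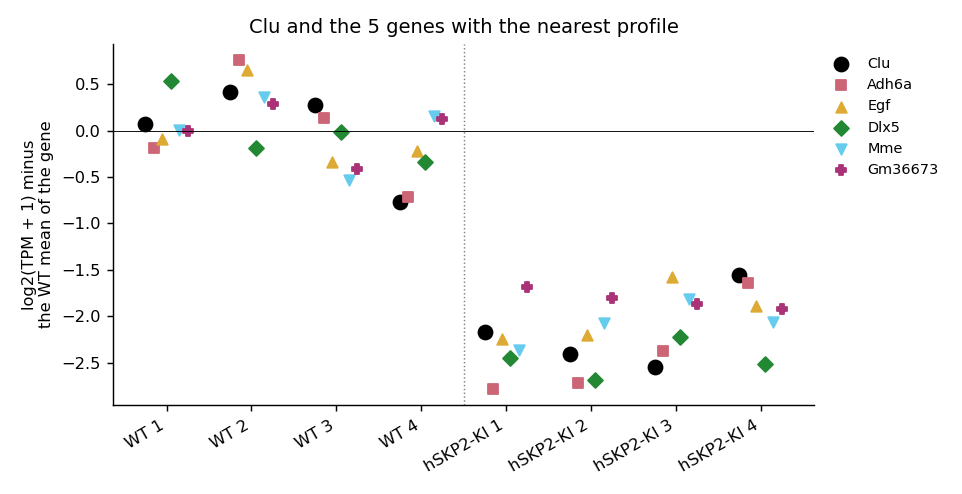
log2(TPM + 1) minus the gene's own WT mean in each of the 8 mice, for Clu (black circles) and the 5 tested genes nearest to it by root mean square difference. Adh6a (red squares) lies near Clu in WT replicate 4 and hSKP2-KI replicate 4, while among hSKP2-KI mice Clu is lowest in replicate 3 and Adh6a in replicate 1.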

How the data were processed

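Paired-end reads of ventral prostate RNA (4 WT and 4 hSKP2-KI males) were trimmed and mapped by the authors in CLC software. The version, annotation and counting options are not given in the sources used here, and the submitters' processing notes name mm10 and GRCm38. The authors deposited one TPM table, so read depth is unknown and no counting interval can be given. It holds 0 columns of other samples. Samples were grouped by their titles.

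The 13080 genes that reached 1 TPM in 4 or more of the 8 samples were tested on log2(TPM + 1) with limma 3.58.1 in R 4.3.3 (trend, Benjamini-Hochberg over all genes tested, threshold 0.05). Clu stayed in the fit, but no p is reported for it. The fold changes of low genes are held down by the added 1. Median-ratio scaling divided TPM by each sample's median ratio to the geometric mean. The test was tried on simulated data with known changes. Values were tabulated in Python 3.11.15. Positions are from RefSeq (GRCm38.p6) and transcripts from GENCODE. Each p-value sets the genotype difference against the spread between these mice, with the variance drawn toward a trend over all genes.

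The members and lists were chosen with earlier results of these data known. Named were the 3 most abundant and the 3 most changed called genes of each list, the 5 neighbours on each side, the 5 nearest profiles and the 3 genes on each side in order of change. From lists of cell type markers other than proximal luminal, only the luminal epithelium markers and the secretory genes are named. Cdh1, Foxa1 and Hoxb13 were added after their values were seen. They are not in the counts of named genes over the alternatives or in the search for outlying mice. Named outside this, after their values were seen, were Trem2, Scarf1, Furin, Myc, Tmprss2, Rhou, Cd59b, Gm42035 and Hist2h2aa1. Some genes counted in the lists are not reported here by name. The alternatives were 0.1 added to TPM, no filter, a filter at a mean of 5 TPM, quantile normalization, median-ratio scaling, removal of the 20 most abundant genes, a replicate block, and leaving out each mouse. The titles do not give the replicate numbers as pairs, and deviations of same-numbered mice correlated with mixed sign. The numbers were therefore not used as pairs in the main test.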

Additional observations from a re-analysis of the deposited data

Results flagged for a closer look

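Over 170 groups of 4 mice, for the TPM of Clu and the named genes and for the rank and within-mouse ratios of Clu, 22 had a mouse whose gap to the nearest other exceeded Dixon's 95% critical share of the range of the group, where chance flags about 1 in 20. In TPM no mouse stood apart for Clu, but in rank and ratios replicate 4 of each genotype did. WT replicate 4 had rank 41 (others 16 to 18), a ratio of Clu to Epcam of 3.62 (others 9.68 to 10.6) and a ratio of Clu to P4hb of 0.955 (others 1.90 to 2.07). hSKP2-KI replicate 4 had a ratio of Clu to Krt8 of 1.68 (others 0.789 to 0.902), to Epcam of 2.18 (others 1.07 to 1.17) and to Hspa5 of 0.773 (others 0.301 to 0.370). These ratios share the Clu value of the mouse. In hSKP2-KI replicate 2, Mgp stood at 542 TPM (others 238 to 286), Ctsb at 232 TPM (others 109 to 119) and Trem2 at 40.9 TPM (others 4.66 to 10.0). The same mouse was low for Calr, at 1066 TPM (others 1391 to 1432), and for Pdia3, at 539 TPM (others 624 to 638). hSKP2-KI replicate 4, the highest of its group for Clu, had 174 TPM of Pbsn (others 93.0 to 97.8), 61.7 TPM of Sord (others 44.4 to 45.3) and 564 TPM of Hspa8 (others 679 to 698). In hSKP2-KI replicate 1, Epcam stood at 439 TPM (others 353 to 363) and Gm42035 at 6.48 TPM (others 0.0878 to 0.787). WT replicate 2, the highest of its group for Clu, had 1110 TPM of Hspa5 (others 728 to 788), 42.6 TPM of Sord (others 22.8 to 26.1) and 41.2 TPM of Myc (others 28.1 to 29.7). WT replicate 3 was low for Krt18, at 507 TPM (others 582 to 588), and for Hist2h2aa1, at 680 TPM (others 1132 to 1192). WT replicate 1 was low for Scara3, at 5.26 TPM (others 8.48 to 8.97).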

How the results depend on the processing

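The lower level of Clu kept its direction under every alternative run, from -2.17 to -2.44 on the log2 scale over the scalings, the pseudocount and the block, and from -2.43 to -2.03 with each mouse left out. How many other genes were called depended on filter and scaling. In TPM as deposited 4433 genes were called (4272 higher, 161 lower), and 57 of the list genes (55 higher, 2 lower). With no filter on low values, where all listed genes enter the adjustment, these were 1653 (1578, 75) and 20 (19, 1). Under median-ratio scaling they were 1460 (904, 556) and 16 (12, 4), under quantile normalization 1317 (709, 608) and 15 (12, 3), and without the 20 most abundant genes 1321 (887, 434) and 15 (12, 3). Leaving out each mouse gave 2993 to 4677 genes (2839 without WT replicate 1 to 4548 without WT replicate 2 higher, 114 to 154 lower) and 40 to 58 list genes (38 to 56 higher, 2 to 2 lower).

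Differences near 0 in named genes turned sign. Under median-ratio scaling these were Nfkb1 (-0.00096), Hspa8 (-0.13), Hsp90aa1 (-0.13), Map1lc3b (-0.060), Bax (-0.18), P4hb (-0.18), Krt18 (-0.080) and Krt8 (-0.11). Under quantile normalization they were Hspa8 (-0.10), Hsp90aa1 (-0.11), Map1lc3b (-0.014), Bax (-0.13), P4hb (-0.16), Krt18 (-0.042), Krt8 (-0.090) and Ephx2 (-0.040). Without the 20 most abundant genes they were Hspa8 (-0.10), Hsp90aa1 (-0.11), Map1lc3b (-0.038), Bax (-0.16), P4hb (-0.16), Krt18 (-0.059) and Krt8 (-0.091). With a mouse left out, Bax ran from -0.041 to 0.21, Ephx2 from -0.0026 to 0.43 and Myc from -0.12 to 0.054. Over 1129 alternative values of 76 named genes, 922 kept direction and call, 166 lost the call, 14 gained it and 27 turned sign. Apart from what the settings change by construction, the cause was not tested.

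The titles do not say whether the shared replicate numbers pair the mice. Correlations of same-numbered deviations were 0.22, -0.11, 0.17 and -0.01, and were not compared with those of differently numbered mice, so pairing was not settled. With a replicate block 5128 genes were called (4941 higher, 187 lower) and 63 list genes (61 higher, 2 lower), and Clu stayed at -2.17. Among the named genes the block lost the call of Epcam and gained those of Junb, Hspb1, Ctgf, Krt18 and Trem2. Depth is unknown, and with 4 mice per genotype the spread between mice sets the precision.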
